A study of Mus musculus with 16 samples.

Results

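The genes described here encode potassium, chloride and calcium channels, volume-regulated anion channels, Piezo channels, P2X receptors and their auxiliary subunits in mIMCD3 cells, a mouse inner medullary collecting duct cell line. They were chosen by symbol alone, as every symbol starting with Kcn, Clcn, Clic, Cacn, Lrrc8, Piezo or P2rx, or with Ano followed by a digit, leaving out pseudogenes marked -ps and Kcnq1ot1. This gave 163 of the 55367 genes in the count tables. Of these, 62 were detected, meaning a mean of at least 1 CPM, counts scaled to 1000000 per library, in at least 1 condition, 101 passed edgeR's filter on low counts and were tested, and 13 had no count in any library. RNA-seq counts came from 16 libraries, 2 for each of 8 conditions. WT cells had been given DMSO or 10 µM sulforaphane (SFN), an Nrf2 activator, for 5 h, and were then either kept in isosmotic medium or moved to hyperosmotic medium of 600 mOsm for 1 h or 6 h. Nrf2-/- cells were given 10 µM SFN for 5 h and were kept isosmotic or stressed for 1 h. The Nrf2-/- line had been made with a CRISPR/Cas9 lentivirus and selected with blasticidin and puromycin, and whether it was 1 clone is not given in the sources used here. Nrf2-/- cells given DMSO and Nrf2-/- cells at 6 h were not analysed here, so the effect of the genotype cannot be told apart from that of the handling of the line.

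Ion channels let ions move down their gradients across membranes. Potassium channels set the membrane voltage of kidney tubule cells, chloride channels and the Lrrc8 volume-regulated anion channel carry chloride and organic osmolytes, and Piezo and P2X channels open on membrane stretch and extracellular ATP. In hyperosmotic medium cells first shrink and then recover volume by taking up salt and, later, compatible organic osmolytes, so that channels that carry potassium, chloride and osmolytes out of the cell act against this recovery. Cells of the inner medulla meet such conditions in the concentrating kidney.

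Libraries held between 34484296 and 50774875 counts. The count of Nfe2l2, the gene of Nrf2, was 11.0 to 11.6 CPM in Nrf2-/- libraries and 64.0 to 149 CPM in WT libraries, in the direction of the labels. The 2 Nrf2-/- libraries at 1 h differed most from each other, with a biological coefficient of variation of 0.348 against 0.0393 to 0.128 in the other conditions. Of 17 collecting duct markers 14 were detected, and their summed level was 3492 to 3896 CPM in WT DMSO isosmotic libraries and 5641 to 5712 CPM at 6 h. Between these libraries Pax2 rose from 119 and 120 to 1136 and 1146 CPM, while Krt8 fell from 996 and 1109 to 802 and 801. The defining principal cell genes were at or near 0, with Aqp2 at 0 to 0.323 CPM, Aqp3 at 0 to 0.821 CPM and Avpr2 at 0 to 0.283 CPM over all libraries. Markers of other cell types stayed low but moved with stress. Between isosmotic and 6 h WT DMSO libraries the summed level of 5 endothelial markers went from 0.0476 to 0.177 up to 4.54 to 4.58 CPM, that of 5 neuronal markers from 1.53 to 2.02 up to 7.27 to 7.72 CPM, that of 6 immune markers from 7.62 to 8.62 up to 14.2 to 17.8 CPM, and that of 7 proximal tubule markers from 10.1 to 12.3 up to 38.8 to 40.6 CPM. Of these lists 1 endothelial, 2 neuronal, 3 immune and 3 proximal tubule genes were detected, and single genes made up much of the shift, with Pecam1 going from 0 and 0.0884 to 3.56 and 3.06 CPM, Ptprc from 0.0953 and 0.133 to 5.68 and 4.08, Tubb3 from 0.929 and 0.730 to 6.08 and 6.45 and Aqp1 from 0.810 and 1.04 to 13.0 and 17.6. Lrp2 also rose, from 7.15 and 5.28 to 13.1 and 10.3 CPM, and Cubn from 4.31 and 3.69 to 13.7 and 9.79. Csf1r went from 4.98 and 5.44 to 6.98 and 7.13 CPM, and Cd68 had 1.88 to 6.82 CPM over all libraries. Some members stayed near 0 in every library, among them Cdh5, Syt1, Lyz2 and Slc5a12 at no more than 0.343, 0.408, 0.154 and 0.0618 CPM. Of 7 fibroblast markers 2 were detected, with a summed level of 2.81 to 3.19 CPM isosmotic and 6.11 to 7.69 CPM at 6 h. The number of genes without a count was 33570 to 35055 in isosmotic libraries and 30252 to 31093 at 6 h. The part of these shifts in the results below was not tested. Reads shared with an overlapping gene could not be told apart, since the strand setting of the counting is not given in the sources used here, and 22 of the 62 detected members overlapped another gene. The study describes the 2 libraries of a condition as biological replicates. The p-values rest on 1 estimate per gene of the spread between replicates, shared by all 8 conditions, the Nrf2-/- libraries at 1 h included. They do not measure the spread within the compared conditions alone. In such bulk libraries fewer cells of a type and less RNA per cell cannot be told apart. Where groups of called genes are said not to overlap, this describes the libraries. It adds no support to the call, which used the same values.

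Levels per length showed which channels made up most of the channel transcripts. Per kilobase of exon, Clic1, a chloride intracellular channel protein, stood highest with a mean of 109 CPM per kb over the 8 conditions, followed by Clic4 at 42.9 and by the stretch-gated cation channel Piezo1 at 39.2 CPM per kb. Next came the calcium channel β-subunit gene Cacnb3 at 23.5 CPM per kb, the tandem-pore-domain potassium channel Kcnk1 at 22.7, the calcium-activated chloride channel Ano1 at 20.5 and the tandem-pore-domain potassium channel Kcnk5 at 19.1. The phospholipid scramblase and channel Ano6 had 12.02 CPM per kb, the volume-regulated anion channel subunit Lrrc8b 11.7 and the endosomal chloride/proton exchanger Clcn5 9.19. Channels of voltage-gated types lay far lower, with the highest of 40 voltage-gated potassium channel genes, Kcnd1, at 0.345 CPM per kb and the highest pore subunit of a voltage-gated calcium channel, the T-type gene Cacna1g, at 2.82. Of 40 voltage-gated potassium channel genes 7 were detected, among them Kcnd1, Kcnf1, Kcnh2, Kcnh4, Kcnh7 and Kcns1, and of 17 auxiliary subunits 6, Kcnab1, Kcnab2, Kcnab3, Kcnip4, Kcnmb4 and Kcnrg. Of 15 inward rectifiers 5 were detected, Kcnj2, Kcnj4, Kcnj12, Kcnj14 and Kcnj16, of 14 tandem-pore-domain channels 6, Kcnk1, Kcnk2, Kcnk5, Kcnk6, Kcnk7 and Kcnk10, and of 8 calcium- or sodium-activated channels 3, Kcnn1, Kcnn4 and Kcnt1. Detection was denser among anion channels, with 6 of 9 Clcn genes (Clcn2 to Clcn7), 4 of 5 Clic genes (Clic1, Clic3, Clic4 and Clic5), 6 of 10 anoctamins (Ano1 and Ano6 to Ano10) and all 5 Lrrc8 genes. Of the calcium channel genes 3 of 10 pore subunits, Cacna1a, Cacna1b and Cacna1g, and 5 of 16 auxiliary subunits, Cacna2d1 and Cacnb1 to Cacnb4, were detected, as were both Piezo genes and 4 of 7 P2X receptors, P2rx2, P2rx4, P2rx5 and P2rx7. None of the 5 opposite-strand transcripts was detected, and the 13 genes without a count were Ano5, Cacna2d3, Cacng3, Kcna3, Kcna5, Kcnh5, Kcnh8, Kcnip1, Kcnj3, Kcnj8, Kcnmb1, Kcns3 and Kcnv1. The order differed between conditions. In WT DMSO cells Clic1 had 137 CPM per kb isosmotic and 118 at 6 h, while Kcnk5 went from 11.9 to 51.8, and Ano1, at 13.0 in WT DMSO cells, reached 46.9 in isosmotic Nrf2-/- cells.

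**Figure D1:**
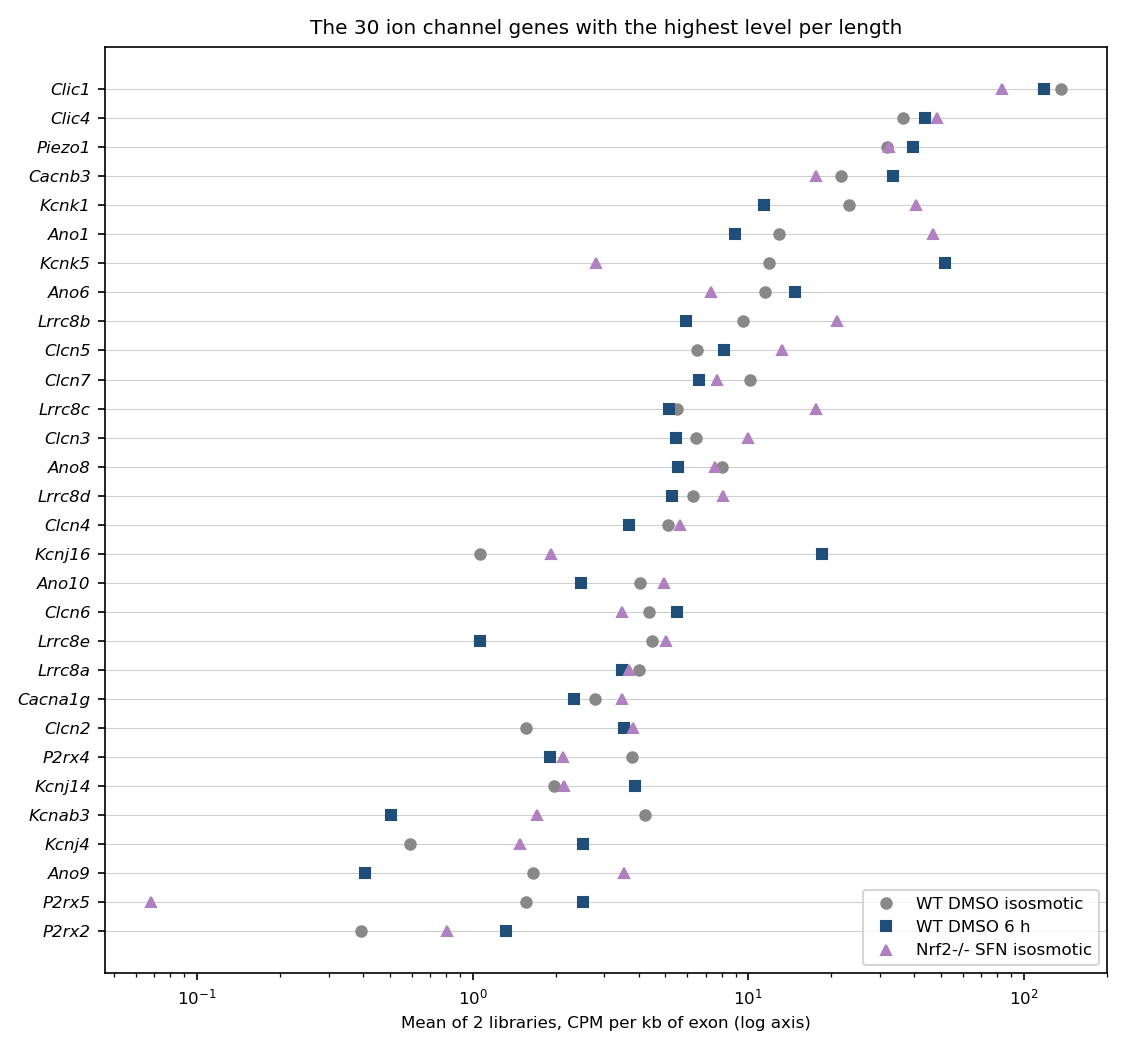
Mean level of 2 libraries in CPM per kb of exon (log axis) for the 30 ion channel genes that were highest per length, in isosmotic WT DMSO cells (circles), WT DMSO cells at 6 h (squares) and isosmotic Nrf2-/- SFN cells (triangles). Clic1, Clic4 and Piezo1 lead, and Kcnk5 and Kcnj16 show wide gaps between the isosmotic and the 6 h symbol.

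Hyperosmotic stress for 6 h moved 56 of the 101 tested ion channel genes in WT DMSO cells, and the excess of rises over falls lay in genes of low level. By edgeR's quasi-likelihood test at a Benjamini-Hochberg adjusted p under 0.05 over all genes, 43 of 101 were called higher and 13 lower, where 23.9% of all 19509 genes tested were called higher and 22% lower. The split of calls depended on the level of the gene. Of the 44 members with a mean of at least 1 CPM over all libraries, 14 were called higher and 13 lower, beside 22% and 31.9% of all genes of that level. Of the 57 below 1 CPM, 29 were called higher and 0 lower, beside 27.7% and 3% of all genes of that level. A gene of low level that passed the filter because it was high in 1 condition had to differ between conditions, so the counts below 1 CPM carry no weight. The median log2 fold change of the 101 was 1.57, or 1.12 with genes at 0 set to their bound, beside 0.05 over all genes tested, and it carries the same limit. Of the 43 called higher, 19 had no count in either isosmotic WT DMSO library, as had 22 of all 101 tested. Leaving out each of the 4 libraries in turn gave 42 to 46 members called, and 33 of the 56 kept their call every time.

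Inwardly rectifying potassium channels, which pass potassium near the resting voltage, included Kcnj16, which had the largest log2 fold change at 6 h of the tested members above 1 CPM in isosmotic WT DMSO cells. Of 8 tested, 6 were called higher at 6 h and none lower, beside 23.9% and 22% of all genes. Of the 6, Kcnj6 and Kcnj12 lay at or near 0 counts before stress and carry no weight in that count. Kcnj16 (chr11:110968033-111027968, plus strand, mm10) and Kcnj2 (chr11:111066164-111076821, plus strand) are neighbours, 38195 bp apart. Kcnj16, Kir5.1, a silent partner of other rectifiers in the distal nephron, had 4.19 and 4.16 CPM in isosmotic WT DMSO cells, 3.39 and 4.58 at 1 h and 69.9 and 75.6 at 6 h. Kcnj2, the strong rectifier Kir2.1, had 0.286 and 0.354 CPM isosmotic, 0.543 and 0.636 at 1 h and 17.7 and 17.6 at 6 h. For both genes the 6 h libraries lay above every isosmotic and 1 h library. The change at 6 h was 17.4-fold for Kcnj16 (log2 fold change 4.12 ± 0.18 SE, edgeR adjusted p = 7.05e-10) and 54.5-fold for Kcnj2 (log2 5.77 ± 0.25, adjusted p = 8.55e-10). Kcnj14 (Kir2.4) rose from 4.86 and 5.90 to 10.6 and 10.5 CPM (log2 0.97 ± 0.18, adjusted p = 0.00039), and Kcnj4 (Kir2.3) from 1.48 and 1.08 to 5.88 and 4.97 CPM (log2 2.08 ± 0.30). Kcnj12 (Kir2.2) had 4 and 0 counts isosmotic and 112 and 84 at 6 h, and was called with an adjusted p of 0.000258. These 5 genes kept their calls when each library was left out in turn.

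Of the Kcnj16 and Kcnj2 starts listed by RefSeq on GRCm38.p6, 2 upstream windows of Kcnj16 hold TGGAAA or its reverse complement TTTCCA, the core letters of the tonicity-responsive element that NFAT5 binds, and the Kcnj2 window holds neither. The 250 bases before the start are given 5′ to 3′, with the matched letters in capitals, because these neighbours showed the changes at 6 h given above. The coordinates are chr11:111019335-111019584 and chr11:111023610-111023859 for Kcnj16 and chr11:111065914-111066163 for Kcnj2, all on the plus strand.
Kcnj16 first window: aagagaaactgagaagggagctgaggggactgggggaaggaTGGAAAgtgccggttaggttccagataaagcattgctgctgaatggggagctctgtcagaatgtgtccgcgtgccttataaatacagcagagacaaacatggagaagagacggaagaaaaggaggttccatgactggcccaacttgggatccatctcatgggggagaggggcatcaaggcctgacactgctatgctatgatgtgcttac
Kcnj16 second window: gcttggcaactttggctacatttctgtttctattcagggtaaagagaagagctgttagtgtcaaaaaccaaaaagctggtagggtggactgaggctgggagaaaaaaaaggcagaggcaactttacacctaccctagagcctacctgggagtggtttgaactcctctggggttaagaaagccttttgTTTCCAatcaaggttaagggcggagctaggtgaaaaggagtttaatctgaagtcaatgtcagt
Kcnj2 window: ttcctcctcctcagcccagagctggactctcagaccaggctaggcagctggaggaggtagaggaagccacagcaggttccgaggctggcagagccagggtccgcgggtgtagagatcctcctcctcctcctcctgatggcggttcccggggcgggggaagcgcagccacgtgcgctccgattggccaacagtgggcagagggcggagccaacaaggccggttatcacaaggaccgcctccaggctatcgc
The same letters, searched on both strands, were found in 6104 of 32851 such windows of all genes (18.6%), in 8 of 44 windows of members called higher at 6 h (18.2%), in 1 of 11 of members called lower (9.09%) and in 27 of 163 of all members (16.6%). The share in members called higher lay near that of all genes. Kcnj16's other 2 windows and the windows of Kcnk5, Kcnn4, Kcnj12 and Kcnk1 had no match, and a match is a description of letters and not of binding.

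**Figure D2:**
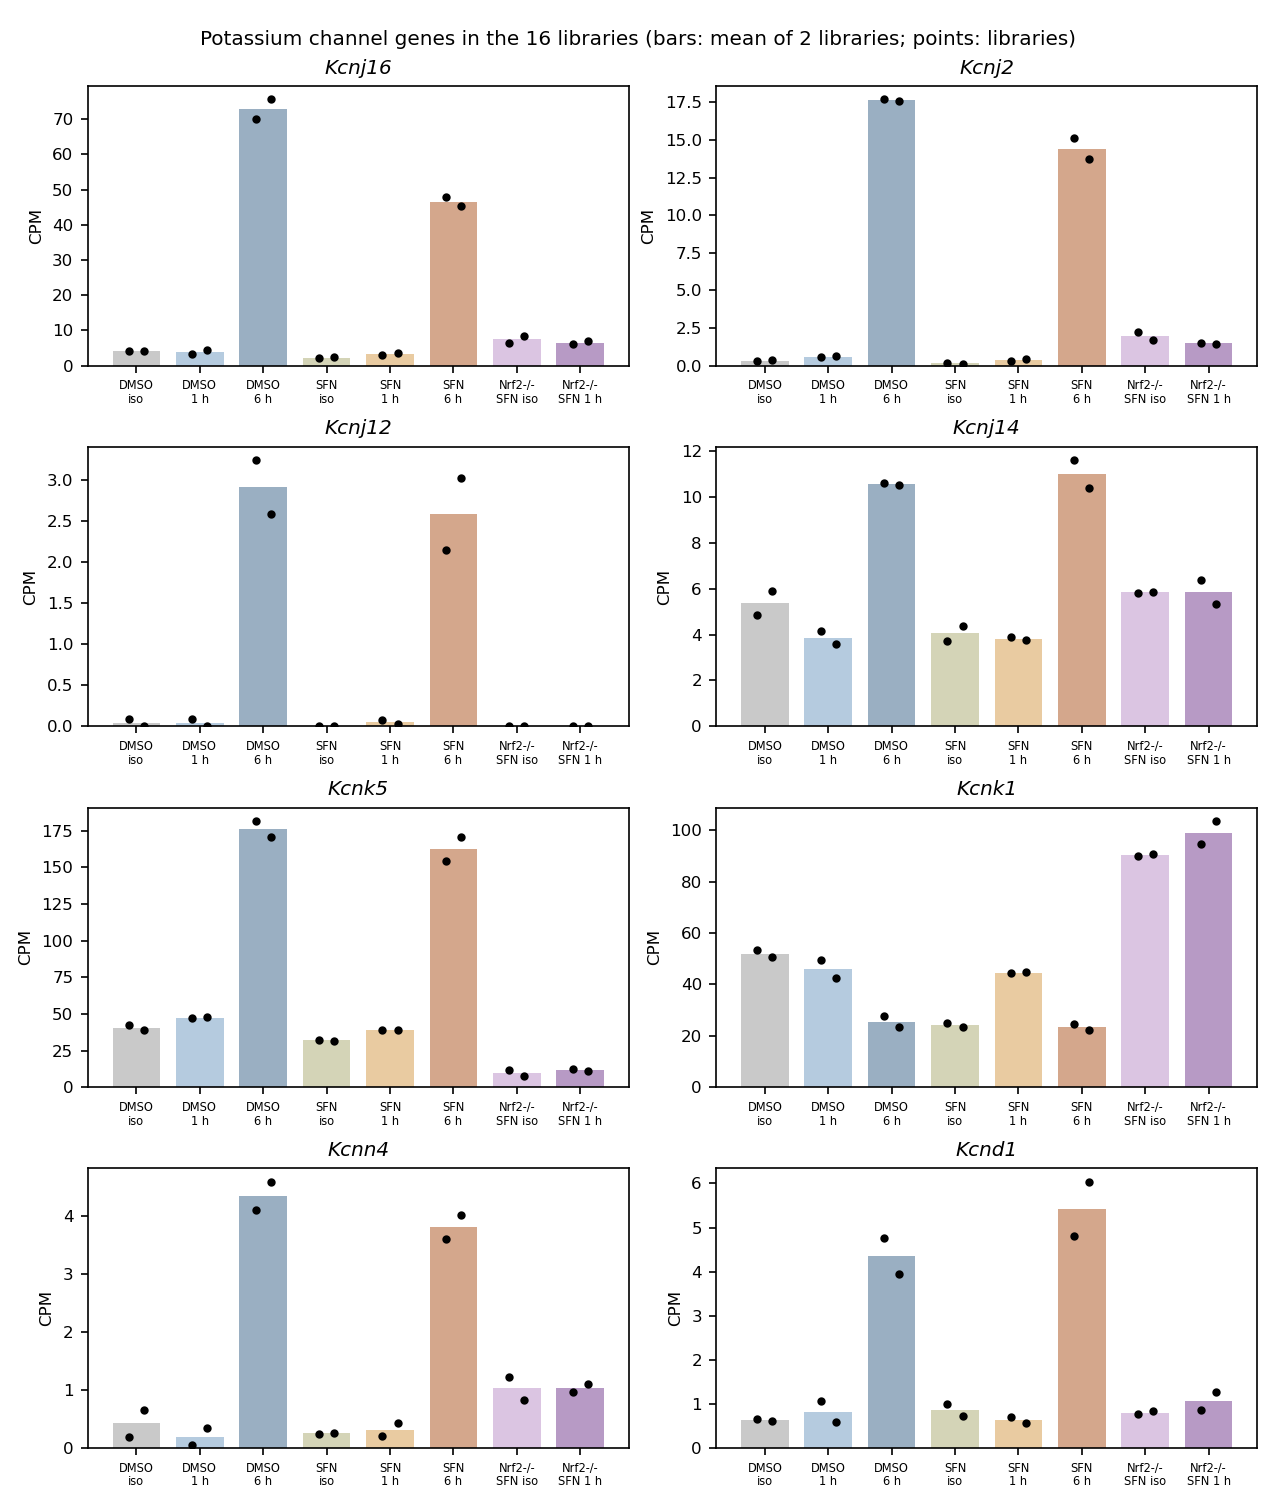
Level in CPM (vertical axes from 0, each with its own scale) of 8 potassium channel genes in each of the 8 conditions, with bars for the mean of 2 libraries and points for the libraries. Kcnj16, Kcnj2, Kcnj12, Kcnj14, Kcnk5, Kcnn4 and Kcnd1 stand highest at 6 h with either pretreatment, and Kcnk1 stands highest in Nrf2-/- cells.

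Tandem-pore-domain channels carry background potassium currents, and 2 of 11 tested were called higher at 6 h and 1 lower. Kcnk5 (TASK-2), an alkali- and volume-sensitive channel of kidney epithelium, had 42.2 and 38.8 CPM isosmotic, 47.0 and 47.9 at 1 h and 182 and 171 at 6 h, a 4.35-fold rise (log2 2.12 ± 0.14, adjusted p = 4.77e-08). Kcnk1 (TWIK-1) went the other way, from 53.5 and 50.6 CPM to 27.6 and 23.3 (log2 -1.03 ± 0.11, adjusted p = 4.76e-06), and its 1 h libraries at 49.4 and 42.6 CPM lay between. Kcnk5 and Kcnk1 thus moved in opposite directions with no overlap between groups. Among calcium- and sodium-activated channels 4 of 5 tested were called higher. Kcnn4, the intermediate-conductance channel KCa3.1, went from 0.191 and 0.663 to 4.11 and 4.60 CPM (log2 3.33 ± 0.57, adjusted p = 0.000232), with 0.0453 and 0.344 CPM at 1 h. Of 16 tested voltage-gated potassium channel genes, 8 were called higher and 1, Kcnf1, a silent subunit, lower. Kcnf1 had 102 and 193 counts isosmotic and 52 and 23 at 6 h, and its call was lost without WT DMSO isosmotic replicate 2 or WT DMSO 6 h replicate 2 (adjusted p up to 0.122). Kcnd1 (Kv4.1) went from 0.667 and 0.619 to 4.75 and 3.95 CPM (log2 2.75 ± 0.35, adjusted p = 1.7e-05) and Kcnh7 (Kv11.3), of the ERG family, from 1.81 and 2.32 to 6.66 and 5.59 CPM (log2 1.57 ± 0.26, adjusted p = 0.000221), and neither overlapped between groups. Among 9 auxiliary subunits tested, 5 were called higher and 1 lower. The β subunit gene Kcnab3, which overlaps Kcnab3os on the other strand, was the member that fell, from 11.6 and 12.6 CPM to 1.42 and 1.48 (8.32-fold lower, adjusted p = 6.84e-07), with 8.28 and 7.74 CPM at 1 h. Kcnmb4, a subunit of the large-conductance BK channel, went from 0.0476 and 0.177 to 3.01 and 2.13 CPM (log2 4.46 ± 0.75), and Kcnrg, a regulator of voltage-gated channels, from 0.0953 and 0.0442 to 1.10 and 0.865 CPM (log2 3.77 ± 0.67).

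Lrrc8 proteins form the volume-regulated anion channel, with Lrrc8a as the obligatory subunit. At 6 h 2 of the 5 genes were called lower and none higher. Lrrc8e had 18.8 and 18.2 CPM isosmotic, 17.0 and 20.2 at 1 h and 2.90 and 5.87 at 6 h, 4.24-fold lower at 6 h (log2 -2.08 ± 0.24, adjusted p = 7.87e-06), and its groups did not overlap. Lrrc8b went from 70.1 and 58.7 to 40.6 and 39.5 CPM (log2 -0.69 ± 0.24, adjusted p = 0.0312), a call lost without either WT DMSO isosmotic library or either WT DMSO 6 h library, with adjusted p up to 0.167. Lrrc8a had 18.1 and 16.6 CPM isosmotic, 7.58 and 7.45 at 1 h and 14.1 and 15.96 at 6 h, and its 1 h libraries lay lowest. Its 1 h difference was -1.20 ± 0.25 on the log2 scale (adjusted p = 0.00627) and was lost without WT DMSO 1 h replicate 1 or WT DMSO 1 h replicate 2 (adjusted p up to 0.0538). Lrrc8a overlaps Gm28035 on the same strand, and that gene had 0 counts. Lrrc8c, at 42.9 and 41.9 CPM isosmotic and 40.8 and 38.0 at 6 h (log2 -0.11 ± 0.20), and Lrrc8d, at 82.2 and 76.6 CPM isosmotic and 66.9 and 65.8 at 6 h (log2 -0.26 ± 0.12), did not pass the test.

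Anoctamins act as calcium-activated chloride channels or lipid scramblases, and at 6 h 4 of 6 tested were called lower and 1 higher. Ano1 went from 83.0 and 79.1 to 56.1 and 55.3 CPM (log2 -0.54 ± 0.10, adjusted p = 0.000317) and Ano9 from 8.24 and 6.30 to 1.42 and 2.16 CPM (log2 -2.02 ± 0.29, adjusted p = 6.11e-05), both without overlap. Ano10, at 22.8 and 25.1 CPM isosmotic and 14.98 and 14.1 at 6 h, lost its call without WT DMSO isosmotic replicate 2 or WT DMSO 6 h replicate 2 (adjusted p up to 0.0634), and Ano8, at 56.2 and 54.3 CPM isosmotic and 35.8 and 40.6 at 6 h, lost it without each of the 4 libraries in turn (adjusted p up to 0.226). Ano6 had 152 and 130.4 CPM isosmotic and 190.0 and 174 at 6 h and did not pass (log2 0.36 ± 0.16). Clcn genes encode plasma membrane chloride channels and endosomal exchangers, and of 9 tested 2 were called higher and 2 lower. Clcn2, a channel that opens on hyperpolarization, went from 9.41 and 9.42 to 21.8 and 20.7 CPM (log2 1.18 ± 0.24, adjusted p = 0.0011), and the lysosomal exchanger gene Clcn7 from 55.6 and 51.7 to 35.1 and 34.9 CPM (log2 -0.62 ± 0.10, adjusted p = 0.00019). Clcn2 overlaps Fam131a and Polr2h on the other strand. Clcn4, at 45.3 and 42.2 CPM isosmotic and 30.3 and 33.1 at 6 h, lost its call without WT DMSO isosmotic replicate 1 or WT DMSO 6 h replicate 1 (adjusted p up to 0.0887). Among Clic proteins Clic5 rose from 5.60 and 6.59 to 11.9 and 11.6 CPM (log2 0.94 ± 0.23, adjusted p = 0.00323), while the abundant Clic1, at 231 and 262 CPM isosmotic and 206 and 218 at 6 h, and Clic4, at 248 and 229 CPM isosmotic and 294 and 284 at 6 h, did not pass.

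Of voltage-gated calcium channel genes, 2 of 6 pore subunits and 7 of 10 auxiliary subunits tested were called higher at 6 h and none lower, beside 23.9% and 22% of all genes and 27.7% and 3% of genes below 1 CPM. Most of these members were low before stress, with Cacng1, Cacng4, Cacng5, Cacna2d2 and Cacnb2 at 0 counts, so their count carries no weight. Cacnb3, a β subunit gene and the highest of them per length, rose from 84.6 and 89.4 to 134 and 134 CPM (log2 0.62 ± 0.09, adjusted p = 6.34e-05). The others were low. Cacnb4, another β subunit gene, had 2 and 0 counts isosmotic and 40 and 45 at 6 h, a ratio of 55.4 (95% counting interval 14.9 to 465), and Cacng4, a transmembrane regulatory subunit, had 0 and 0 counts isosmotic and 30 and 24 at 6 h. Piezo1 had 355 and 277 CPM isosmotic and 422 and 364 at 6 h and did not pass (log2 0.32 ± 0.16), although both 6 h libraries lay above both isosmotic ones. Piezo1 overlaps Ctu2 on the other strand. Piezo2 went from 9.31 and 6.81 to 5.27 and 3.98 CPM (log2 -0.80 ± 0.21, adjusted p = 0.00627), a call lost without WT DMSO isosmotic replicate 1 or WT DMSO 6 h replicate 2 (adjusted p up to 0.0926). Among the P2X receptors 3 of 7 tested were called higher and 1 lower. P2rx4, a lysosomal and surface receptor, fell from 26.5 and 26.7 to 14.1 and 12.6 CPM (log2 -0.99 ± 0.13, adjusted p = 3.03e-05), whereas P2rx2 rose from 1.17 and 0.862 to 3.42 and 3.37 CPM (log2 1.74 ± 0.27, adjusted p = 9.31e-05). P2rx5, at 3.12 and 4.36 CPM isosmotic and 6.87 and 5.19 at 6 h, did not pass. P2rx7 went from 0.119 and 0.199 to 1.62 and 0.587 CPM, and its call was lost without WT DMSO isosmotic replicate 1 or WT DMSO 6 h replicate 1 (adjusted p up to 0.129).

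**Figure D3:**
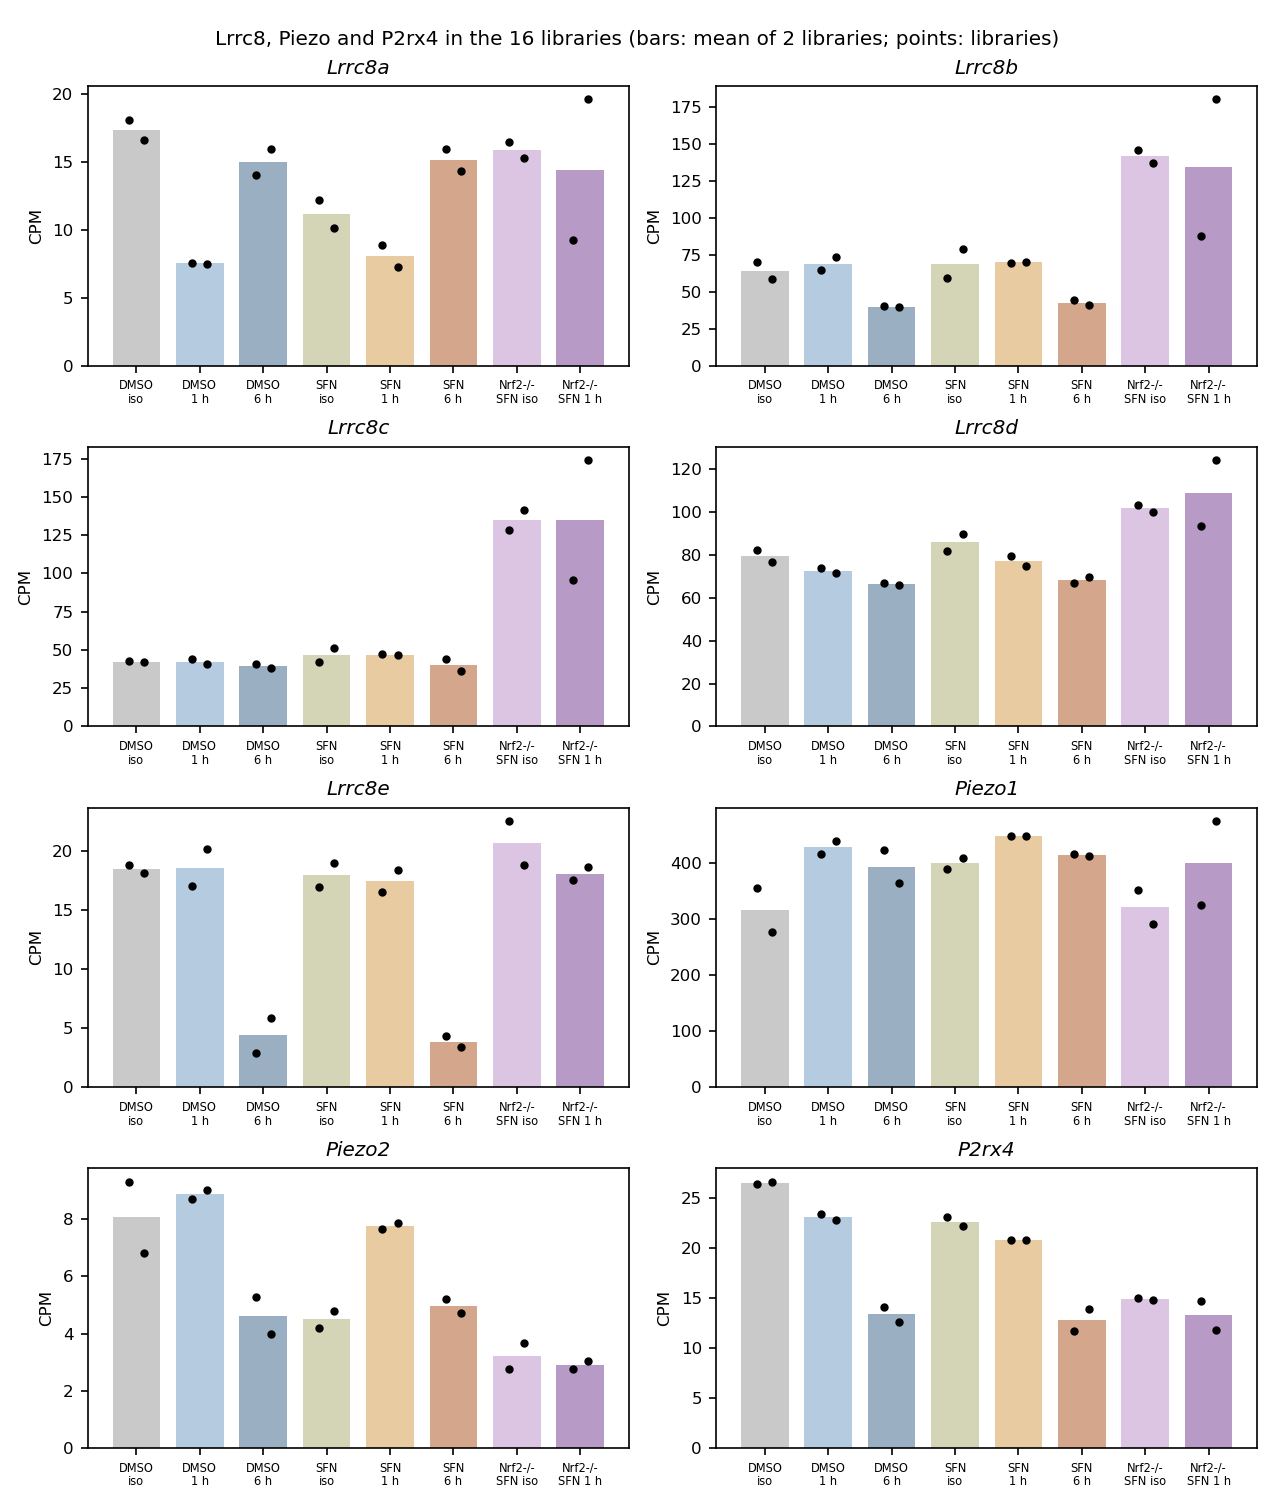
Level in CPM (vertical axes from 0, each with its own scale) of the 5 Lrrc8 genes, Piezo1, Piezo2 and P2rx4 in the 8 conditions, with bars for the mean of 2 libraries and points for the libraries. Lrrc8e stands at or below 5.87 CPM in the 4 libraries at 6 h and at or above 16.6 CPM in all others, and Lrrc8c is highest in Nrf2-/- cells.

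The genes called higher at 6 h from no count in isosmotic WT DMSO cells are given as counts against a floor of 3 counts over the group, since a fitted fold change depends on the prior count there. Kcns1, a modifier subunit of Kv2 channels, had 54 and 37 counts at 6 h and was at least 39.5-fold higher. Cacng4 was at least 23.5-fold higher, Kcnt1, a sodium-activated potassium channel with 18 and 31 counts, at least 21.3-fold, and Cacnb2, with 34 and 14 counts, at least 20.9-fold. P2rx1 had 31 and 14 counts, Kcnn3 34 and 10, Kcnj6 21 and 6, Kcnd3 14 and 9, Kcnv2 7 and 12, Cacng1 11 and 13 and Cacna2d2 14 and 12. These genes are best known from nerve, muscle or eye, and all of them stayed at or below 54 counts per library at 6 h. Among the neuronal markers Rbfox3 had 0 to 0.125 CPM over all libraries, while Tubb3 went from 0.929 and 0.730 CPM isosmotic to 6.08 and 6.45 at 6 h, and their part in the result was not tested. P2rx1 lost its call without WT DMSO isosmotic replicate 2 (adjusted p up to 0.052) and Kcnn3 without WT DMSO 6 h replicate 1 (adjusted p up to 0.051).

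After SFN the 6 h comparison called 42 members higher and 14 lower (all genes, 24.7% and 22.9%), with 37 members called in all without WT SFN isosmotic replicate 2 and 33 without WT SFN 6 h replicate 2. Kcnj16 went from 2.12 and 2.41 CPM to 47.8 and 45.3 (log2 4.36 ± 0.18), Kcnj2 from 0.161 and 0.130 to 15.1 and 13.7 (log2 6.62 ± 0.28), and Kcnk5 from 32.0 and 31.8 to 155 and 170.4 (log2 2.35 ± 0.15). Kcnn4 reached 3.61 and 4.02 CPM from 0.241 and 0.259, and Lrrc8e fell from 16.9 and 19.0 to 4.38 and 3.36 CPM (log2 -2.21 ± 0.24, adjusted p = 4.55e-06). The directions matched those after DMSO for these 5 genes. The count of 42 carries the limit given above for genes of low level. Lrrc8d, at 81.9 and 89.6 CPM isosmotic and 66.9 and 69.8 at 6 h, was called lower after SFN, a call lost without WT SFN isosmotic replicate 2 or WT SFN 6 h replicate 1 or WT SFN 6 h replicate 2 (adjusted p up to 0.175). Kcnk1, which fell at 6 h after DMSO, had 25.02 and 23.4 CPM isosmotic and 24.8 and 22.3 at 6 h after SFN and was not called (log2 -0.04 ± 0.11).

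Between 1 h and 6 h in WT DMSO cells, 28 members were called higher and 17 lower (all genes, 20.4% and 22%), and 28 in all without WT DMSO 1 h replicate 1 or without WT DMSO 6 h replicate 1. Kcnj16 (log2 4.19 ± 0.18), Kcnj2 (4.90 ± 0.24), Kcnk5 (1.89 ± 0.14), Kcnn4 (4.52 ± 0.63) and Kcnd1 (2.39 ± 0.34) rose over this interval, and Lrrc8e fell by 2.09 on the log2 scale. Lrrc8a, lowest at 1 h, rose by 1.00 (adjusted p = 0.00511), and Clcn6, an endosomal exchanger, rose from 18.0 and 19.7 to 34.6 and 30.8 CPM (adjusted p = 0.000854). Ano7 and Kcnt1 went the other way, Ano7 from 63 and 59 to 1 and 4 counts and Kcnt1 from 151 and 98 to 18 and 31. All other genes named for this interval kept their call without any 1 library. The call of Kcnt1 was lost without WT DMSO 1 h replicate 1 or WT DMSO 6 h replicate 1 (adjusted p up to 0.105).

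Stress for 1 h in WT DMSO cells called 14 members higher and 1, Lrrc8a, lower (all genes, 7.1% and 4.11%). At a mean of at least 1 CPM over all libraries 2 of 44 were called higher and 1 lower, beside 4.1% and 4.98% of all genes of that level, and below 1 CPM 12 of 57 were higher and 0 lower, beside 12.9% and 2.43%. Of the 14, 10 had no count in either isosmotic library. As at 6 h, the counts below 1 CPM carry no weight, and the count of 14 carries the same limit. Kcnt1 had 0 and 0 counts isosmotic and 151 and 98 at 1 h, at least 88.3-fold higher. Ano7, an anoctamin known from prostate, went from 0 and 0 to 63 and 59 counts, at least 43.3-fold, and Kcns1 from 0 and 0 to 43 and 32, at least 26.6-fold. Kcnd3 had 38 and 21 counts at 1 h and was at least 20.9-fold higher. Of the called genes with a measured isosmotic level, P2rx2, an ATP-gated cation channel, rose from 1.17 and 0.862 to 4.10 and 4.08 CPM (log2 2.01 ± 0.26, adjusted p = 0.000192). These 5 genes kept their call without any 1 of the 4 libraries. The other 10 lost it in at least 1 of those fits, in which 6 members were called without WT DMSO isosmotic replicate 1, 6 without WT DMSO isosmotic replicate 2, 5 without WT DMSO 1 h replicate 1 and 6 without WT DMSO 1 h replicate 2. Cacnb2 had 28 and 27 counts, Kcnk18 26 and 9, Kcng2 11 and 18, Kcnj6 10 and 14 and Cacna1s 8 and 5 at 1 h, all from 0. Kcnmb3 showed a ratio of 14.5 (95% counting interval 4.64 to 73.4), and P2rx7 went from 0.119 and 0.199 to 1.11 and 1.19 CPM. Of the 14 genes 1, Ano7, 440 bp downstream of Ppp1r7, lay within 10 kb of the end of an expressed gene upstream on the same strand, as did 4 of 30 called higher only at 6 h and 9 of 57 called higher at neither time.

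**Figure D4:**
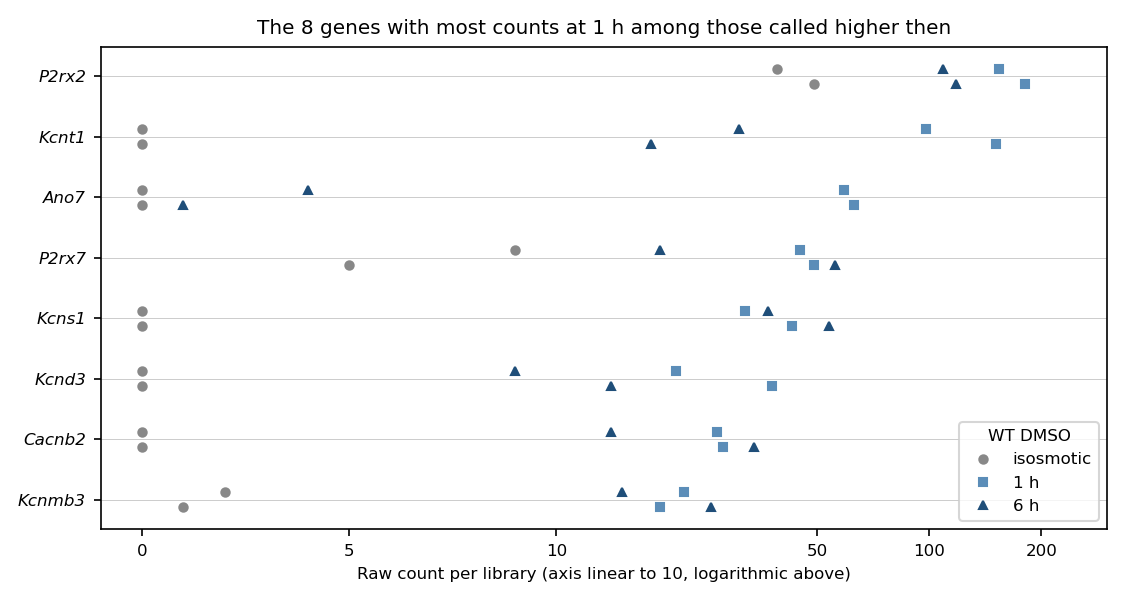
Raw counts per library (axis linear to 10 and logarithmic above) of the 8 genes with most counts at 1 h among the 14 called higher at 1 h in WT DMSO cells, in isosmotic (circles), 1 h (squares) and 6 h (triangles) WT DMSO libraries, 2 points per condition. Kcnt1 and Ano7 have 0 counts isosmotic and their highest counts at 1 h, 151 and 98 for Kcnt1 and 63 and 59 for Ano7.

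In SFN-treated WT cells 17 members were called higher at 1 h and 1 lower (all genes, 5.94% and 3.58%), and Kcnt1, Ano7 and Kcnk1 kept their call without any 1 library. The count of 17 carries the limit given above for genes of low level. Kcnt1 went from 0 and 6 to 106 and 105 counts. Ano7 went from 1 and 2 to 57 and 48, a ratio of 40.8 (95% counting interval 13.6 to 201). Kcnk1 rose from 25.02 and 23.4 to 44.3 and 44.7 CPM (log2 0.88 ± 0.11, adjusted p = 0.000213). In all, 7 members were called without WT SFN isosmotic replicate 1, 3 without WT SFN isosmotic replicate 2, and 6 without WT SFN 1 h replicate 1 or replicate 2. In Nrf2-/- SFN cells 11 members were called higher at 1 h and 0 lower (all genes, 4.36% and 2.81%, DESeq2 17 members in all, 29 at an unadjusted p under 0.05). The count of 11 carries the same limit. Kcnt1, with 36 and 41 counts, was at least 26.5-fold higher and Ano7, with 37 and 23, at least 20.7-fold, both from 0. Both kept their call without any 1 library but lost it when the model held only the 4 libraries compared (adjusted p 0.0653 for Kcnt1 and 0.0774 for Ano7), where no member was called, and with a replicate block 5 were called. The number called was 4 without Nrf2-/- SFN isosmotic replicate 1, 5 without replicate 2, 27 without Nrf2-/- SFN 1 h replicate 1 and 24 without replicate 2. The difference between the 1 h effects in Nrf2-/- and WT cells passed for 0 members in edgeR's test (all genes, 0.0615% higher and 0.0615% lower), with 8 at an unadjusted p under 0.05 and 2 by DESeq2. Without Nrf2-/- SFN 1 h replicate 1 it passed for 10, and without replicate 2 for 6.

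SFN before stress moved Kcnk1, and the number of other ion channel genes called depended on the libraries in the model. In isosmotic WT cells 0 members were called higher and 3 lower (all genes, 1.09% and 1.76%, with 21 members at an unadjusted p under 0.05 and 4 called by DESeq2). The number called was 12 with only the 12 WT libraries, 12 without the 2 Nrf2-/- libraries at 1 h, 7 without the filter and 6 with only the libraries compared. Kcnk1 had 53.5 and 50.6 CPM after DMSO and 25.02 and 23.4 after SFN, 2.15-fold lower (log2 -1.11 ± 0.11, adjusted p = 4.59e-05), without overlap. Kcnj16 went from 4.19 and 4.16 to 2.12 and 2.41 CPM (log2 -0.88 ± 0.18, adjusted p = 0.0151) and Piezo2 from 9.31 and 6.81 to 4.21 and 4.80 CPM (log2 -0.84 ± 0.21, adjusted p = 0.0469). Only the call of Kcnk1 was kept when WT DMSO isosmotic replicate 1, replicate 2, WT SFN isosmotic replicate 1 or replicate 2 was left out, and 1 member was called in each of these fits. Under stress no member was called between SFN and DMSO with all 16 libraries in the model. At 1 h 0 were called by edgeR (all genes, 0.0923% higher and 0% lower) and 0 by DESeq2, with 3 at an unadjusted p under 0.05, and at 6 h 0 by edgeR (0.041% higher and 0% lower) and 0 by DESeq2, with 3. With only the libraries compared 2 members were called at 1 h and 1 at 6 h, and with only the 12 WT libraries 2 at 6 h. The change in the SFN effect with stress passed for Kcnk1 alone at both times, higher in direction (all genes at 1 h, 0.487% higher and 0.0718% lower, and at 6 h, 0.595% and 0.164%). At 1 h Kcnk1 stood at 49.4 and 42.6 CPM after DMSO and 44.3 and 44.7 after SFN, and the interaction was 1.06 ± 0.16 on the log2 scale (adjusted p = 0.00455). At 6 h it stood at 27.6 and 23.3 CPM after DMSO and 24.8 and 22.3 after SFN, with an interaction of 0.99 ± 0.16 (adjusted p = 0.00632). The first was lost without WT DMSO 1 h replicate 2 (adjusted p = 0.0509), and the second without WT DMSO 6 h replicate 2 or WT SFN isosmotic replicate 2 or WT SFN 6 h replicate 1 (adjusted p up to 0.0674). The SFN difference of Kcnk1 seen before stress was not called at 1 h or 6 h. Kcnk1 overlaps Gm45875 on the other strand.

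Nrf2-/- cells given SFN differed from WT cells given SFN in 32 members before stress, 16 higher and 16 lower (all genes, 15.7% and 18.4%), of which 21 kept their call without any 1 library. The summed level of the 5 neuronal markers, with Rbfox3 at 0 in Nrf2-/- libraries, was 2.82 to 3.03 CPM in WT SFN and 7.98 to 9.07 CPM in Nrf2-/- isosmotic libraries, that of the collecting duct markers 2550.1 to 2777 and 3285 to 3549 CPM, and their part in the result was not tested. Among potassium channels Kcnk1 had 25.02 and 23.4 CPM in WT and 90.2 and 90.9 in Nrf2-/- cells (log2 1.91 ± 0.12, adjusted p = 1.1e-08), Kcnj2 0.161 and 0.130 CPM in WT and 2.25 and 1.72 in Nrf2-/- cells (log2 3.76 ± 0.30), and Kcnk2 (TREK-1), a stretch- and lipid-gated channel, 0.268 and 0.222 CPM in WT and 1.96 and 1.99 in Nrf2-/- cells (8.02-fold, log2 SE 0.44). Kcnj16 also stood higher, at 6.57 and 8.54 against 2.12 and 2.41 CPM. In contrast Kcnk5 fell to 11.4 and 7.63 CPM from 32.0 and 31.8 (log2 -1.75 ± 0.15, adjusted p = 4.14e-07), and Kcnn1, the small-conductance channel SK1, to 1.48 and 1.61 from 6.11 and 4.73. Kcnf1 had 62 and 133 counts in WT and 0 and 0 in Nrf2-/- cells, at least 51.6-fold lower. Kcnj16, Kcnj2 and Kcnk1 thus lay on the side opposite to Kcnk5 and Kcnf1. None of these groups overlapped, which adds no support for genes chosen as called. Among anion channels Ano1 rose from 89.2 and 86.7 to 292 and 293 CPM (log2 1.73 ± 0.10, adjusted p = 4.4e-09), Lrrc8c from 42.1 and 51.5 to 128 and 141 (log2 1.53 ± 0.20, adjusted p = 4.3e-05), and Clcn5 from 67.3 and 82.5 to 157 and 145 (log2 1.01 ± 0.20, adjusted p = 0.00134). Lrrc8b, at 146 and 137 against 59.3 and 78.7 CPM, was called, but not without WT SFN isosmotic replicate 1 (adjusted p = 0.0594). Clic5 fell from 5.01 and 6.45 to 1.08 and 0.537 CPM and Ano6 from 146 and 168 to 90.0 and 90.0 (log2 -0.80 ± 0.16, adjusted p = 0.00118). Among calcium-permeable channels the T-type pore gene Cacna1g rose from 24.1 and 21.3 to 38.3 and 32.4 CPM (log2 0.64 ± 0.12, adjusted p = 0.000895), and the P/Q-type pore gene Cacna1a fell from 4.67 and 4.08 to 1.56 and 1.91 CPM (log2 -1.33 ± 0.28, adjusted p = 0.00186). The ATP receptor gene P2rx5 fell from 2.65 and 2.78 to 0.0569 and 0.269 CPM (log2 -4.01 ± 0.44), and the α2δ subunit gene Cacna2d1 from 2.82 and 3.21 to 0.199 and 0.484 (log2 -3.12 ± 0.40). Clic1, at 192 and 168 CPM in WT and 143 and 156 in Nrf2-/- cells, and Piezo1, at 389 and 409 and 352 and 290.3 CPM, were not called. Over all 14 comparisons 6 of the 62 detected members were never called, Clic1, Clic4, Kcnab1, Kcnh4, Kcnk10 and Piezo1.

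At 1 h of stress 19 members were higher and 13 lower in Nrf2-/- cells (all genes, 15.3% and 16.2%), and 17 of the 32 kept their call without any 1 library, with 20 called without WT SFN 1 h replicate 2. With only the 4 libraries compared in the model 13 members were called, and 12 of the 17 kept their call under this and all other settings. Ano1 stood at 256 and 305 CPM against 81.3 and 78.3 (log2 1.81 ± 0.10), Lrrc8c at 95.7 and 174 against 47.2 and 46.6 (log2 1.52 ± 0.20), and Kcnk1 at 94.6 and 104 against 44.3 and 44.7 (log2 1.16 ± 0.11). Kcnk5 stood at 12.7 and 10.9 against 38.9 and 39.0 CPM (log2 -1.72 ± 0.15, adjusted p = 5.15e-07) and Piezo2 at 2.75 and 3.06 against 7.67 and 7.87 (log2 -1.42 ± 0.22, adjusted p = 0.000158). The groups did not overlap for these 5 genes, which were chosen as called between the same groups, so this adds no support. The Nrf2-/- libraries at 1 h differed much from each other. Of the 5 Lrrc8 genes 4 were called higher, of which Lrrc8c alone kept its call without any 1 library, and it had an adjusted p of 0.051 with only the 4 libraries compared. Lrrc8a lost its call without WT SFN 1 h replicate 2 or Nrf2-/- SFN 1 h replicate 2 (adjusted p up to 0.451), Lrrc8b without WT SFN 1 h replicate 1 or WT SFN 1 h replicate 2 or Nrf2-/- SFN 1 h replicate 2 (up to 0.0606) and Lrrc8d without WT SFN 1 h replicate 2 (0.0587). With Nrf2-/- 6 h cells not analysed here, the 6 h rises of Kcnj16, Kcnj2 and Kcnk5 could not be compared between genotypes.

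**Figure D5:**
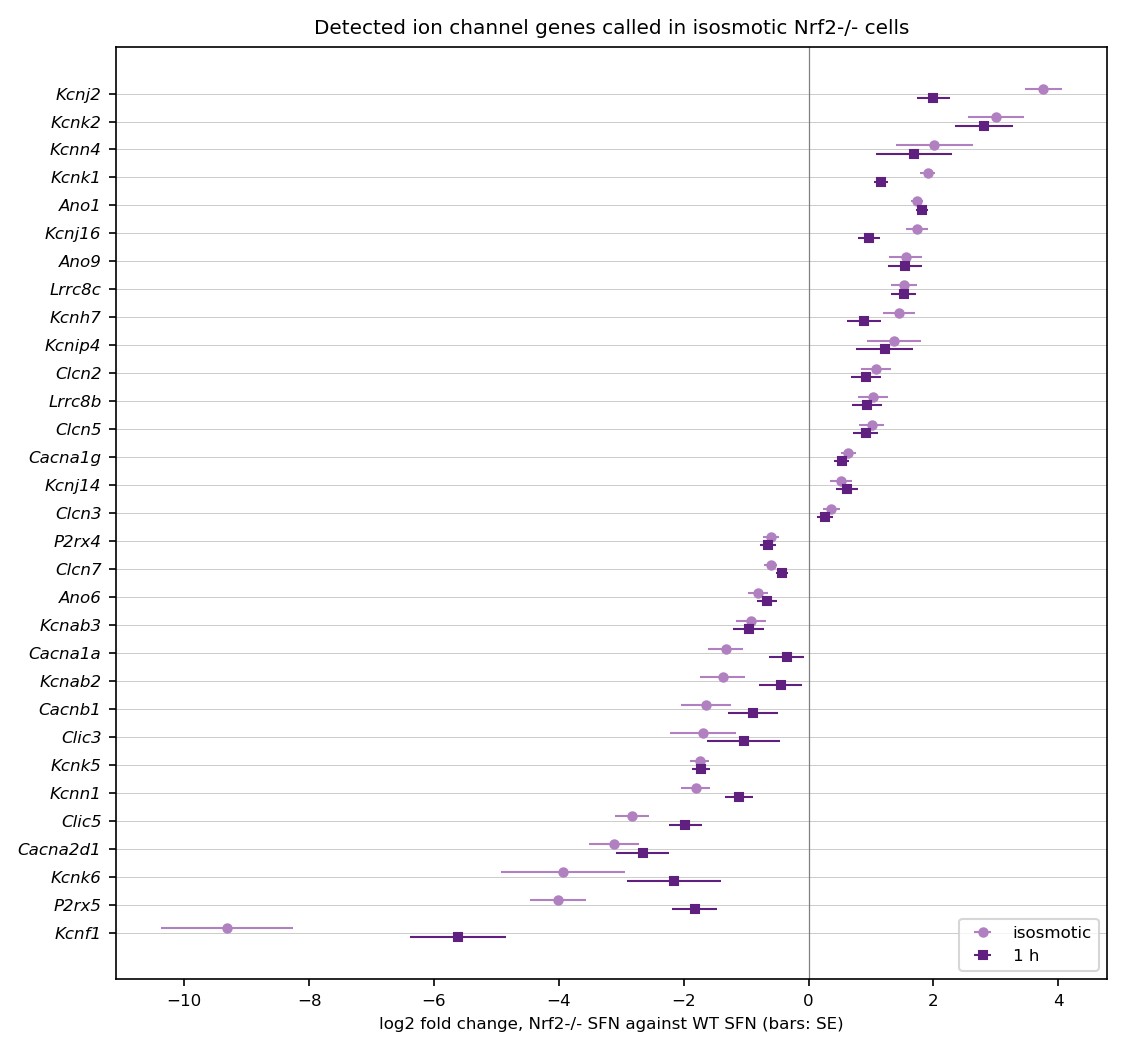
Log2 fold change of Nrf2-/- SFN against WT SFN cells (horizontal axis, bars SE) for the detected members called in isosmotic cells, in isosmotic cells (circles) and at 1 h (squares). Ano1, Kcnk1 and Lrrc8c lie to the right of 0 and Kcnk5, P2rx5 and Cacna2d1 to the left at both times, while the value of Kcnf1, with 0 counts in isosmotic Nrf2-/- libraries, depends on the prior count.

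Ion channels outside these families, 88 listed genes such as TRP, sodium, ryanodine, HCN, Orai and bestrophin channels, of which 60 were tested, were read the same way. At 6 h in WT DMSO cells 19 of 60 were called higher and 10 lower, beside 23.9% and 22% of all genes. The higher ones included the ryanodine receptor genes Ryr1 and Ryr2 and the calcium channel gene Orai2, and the lower ones the lysosomal channels Tpcn1 and Tpcn2. The paralogues Tmem63a and Tmem63b, of an osmosensitive channel family, moved apart, with log2 fold changes of -0.36 ± 0.10 and 0.83 ± 0.09. At 1 h 10 were higher and 1 lower, beside 7.1% and 4.11% of all genes. The counts at both times were not split by level, and genes of low level carry no weight in them, as above. Log2 fold changes of the 10 at 1 h ran from 0.46 ± 0.11 for Itpr3 to 8.79 ± 0.96 for Bsnd, and Ryr2 had 6.23 ± 1.96 at 6 h. SFN before stress called Pkd1 and Itpr3 higher and none lower, beside 1.09% and 1.76%. Nrf2-/- cells differed before stress in 7 higher and 16 lower, beside 15.7% and 18.4%.

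Over the means of the 8 conditions, on a log2(CPM + 0.1) scale, the member most like Kcnj16 among the 61 other detected members was its neighbour Kcnj2 (Pearson r = 0.982), followed by Kcnn4 (0.962) and Kcnj14 (0.961). Kcnj2 was in turn most like Kcnj16 and then Kcnn4 (0.965). Kcnk1 was most like Cacna1g (0.923) and Lrrc8b (0.900), and Kcnt1 was most like Ano7 (0.931) and P2rx2 (0.902). Kcnk1, Ano7, Kcnj16, Kcnj2 and Kcnt1 were taken as the members called in most comparisons. The 8 conditions share treatments and media, so the values describe these means only.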

How the data were processed

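The deposited files hold the authors' raw read counts per gene, 1 table for each of 16 libraries. The study's methods name Hisat2 with mm10 as the aligner and FeatureCounts as the counter, whereas the submitters' processing notes name Bowtie2, SAMtools, featureCounts and mm10; versions, gene annotation, strand and read-pair settings are not given in the sources used here. A few lines that named no gene, 5 over 2 libraries, were dropped. The labels' extraction text speaks of primary tubular cells while the samples are labelled mIMCD3, and the column headers of the WT SFN isosmotic tables carry the numbers 2 and 3 where the titles give 1 and 2.

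Counts of all 16 libraries were fitted in 1 model with a term per condition by edgeR 4.0.16 in R 4.3.3 (filterByExpr, TMM scaling, robust quasi-likelihood test), with Benjamini-Hochberg adjustment over all 19509 genes tested and a limit of 0.05 for 14 comparisons. CPM are counts scaled to 1000000 by the TMM library size. The SE is the log2 fold change divided by the square root of F. DESeq2 1.42.0, RLE scaling, no filter, smaller sets of libraries, a replicate block and leaving out each library were tried as alternatives. Exon lengths and positions came from GENCODE release M21 by symbol, which matched 53253 genes (96.2%) and all 163 members, and promoters from RefSeq on GRCm38.p6. On data simulated for the WT DMSO 1 h comparison over 18321 genes, edgeR recovered 78 of 100 genes changed by 1 on the log2 scale. It recovered 96 of 100 changed by 2 and called 10 unchanged genes. Changes were planted only in genes of higher mean count, so these rates do not cover members of low level. Even numbers made up 58.0% to 68.5% of the counts from 1 to 10, so counts may not be independent fragments, and intervals (exact Clopper-Pearson, 95%) and floors cover counting error only.

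The members and lists were chosen with earlier results of these data known. Values in each library were given for members called in a comparison, up to 15 a direction by log2 fold change, for detected Lrrc8, Piezo and P2X genes and for the 3 members highest per length of each role; other detected members with values, such as Clcn2 at 6 h, were chosen after their values were seen. Likeness was the Pearson correlation over condition means. With 2 libraries per condition an exact permutation test of a single value cannot go below p = 0.333, so none was used. Results of a few members are not reported here.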

Additional observations from a re-analysis of the deposited data

Results flagged for a closer look

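The effect of SFN on Kcnk1 differed between isosmotic and stressed WT cells, by the interaction term of edgeR's model, at 1 h by 1.06 on the log2 scale and at 6 h by 0.99. Kcnk1 had 25.02 and 23.4 CPM after SFN in isosmotic libraries, below both DMSO libraries at 53.5 and 50.6 CPM, and at 1 h and 6 h the libraries after SFN and DMSO overlapped. Both interactions use the same 4 isosmotic libraries. The first lost its call without WT DMSO 1 h replicate 2 (adjusted p = 0.0509), and the second without WT DMSO 6 h replicate 2 or WT SFN isosmotic replicate 2 or WT SFN 6 h replicate 1 (adjusted p up to 0.0674).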

How the results depend on the processing

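With 2 libraries per condition the counts of called ion channel genes moved with the choice of libraries and of filter, and no named change reversed its direction under any alternative. Of the called changes of named genes, 258 kept their call and 12 lost it with DESeq2, and 261 and 9 with RLE scaling. The numbers were 255 and 15 without the filter, 244 and 26 with the replicate block and 208 and 29 with only the libraries compared. In the last setting changes of genes that failed the filter on low counts were left out and not counted as lost. Leaving out single libraries kept 715 of these calls and lost 373. RLE scaling shifted the median log2 fold change of all genes at 6 h in WT DMSO cells from 0.05 to 0.14.

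Without the filter on low counts 7 members instead of 3 were called between SFN and DMSO in isosmotic cells, 27 instead of 15 at 1 h in WT DMSO cells, 18 instead of 11 at 1 h in Nrf2-/- cells, 2 instead of 1 for each SFN interaction and 1 instead of 0 for the genotype interaction. With only the 12 WT libraries the SFN comparisons gave 12 isosmotic and 2 instead of 0 at 6 h, the 1 h comparison 32 in WT DMSO and 32 instead of 18 in WT SFN cells, and each SFN interaction 2. With only the libraries compared the SFN comparisons gave 6 isosmotic, 2 instead of 0 at 1 h and 1 instead of 0 at 6 h, the 1 h comparison 24 in WT DMSO and 0 in Nrf2-/- cells, the genotype comparison at 1 h 13 instead of 32, and each SFN interaction 2. DESeq2 gave 17 at 1 h in Nrf2-/- cells, 2 for the 6 h SFN interaction and 2 for the genotype interaction. Without the 2 Nrf2-/- libraries at 1 h, an alternative chosen after seeing the data, the SFN comparisons gave 12 isosmotic and 2 at 6 h, the 1 h comparison 27 in WT DMSO and 30 in WT SFN cells, and the SFN interactions 3 at 1 h and 2 at 6 h. The cause of these shifts was not tested.

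Leaving out each library in turn gave 1 to 1 members called for SFN isosmotic, 0 to 0 at 1 h and 0 to 0 at 6 h, 5 to 6 at 1 h, 42 to 46 at 6 h and 28 to 31 from 1 h to 6 h in WT DMSO cells, 3 to 7 at 1 h and 33 to 43 at 6 h in WT SFN cells, 25 to 27 isosmotic and 20 to 42 at 1 h for genotype, 4 to 27 at 1 h in Nrf2-/- cells, 0 to 1 for each SFN interaction and 0 to 10 for the genotype interaction.

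Whether replicate numbers pair the samples could not be settled, since headers and titles of the WT SFN isosmotic tables differ in these numbers. The correlation of deviations between same-numbered libraries exceeded 0.1 in 5 of 28 pairs of conditions (median -0.012, range -0.344 to 0.504). With the number as a replicate block 5 instead of 11 members were called at 1 h in Nrf2-/- cells, 12 at 1 h and 55 at 6 h in WT DMSO cells and 2 for SFN isosmotic, where Piezo2 had an adjusted p of 0.0702. A member at 0 was below the floor of 3 counts over the 2 libraries of a group, and so not detectable at this depth rather than absent.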
